A study of Homo sapiens with 6 samples.

Results

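The genes described here are 10 receptor tyrosine kinases and ligands that lie outside the ERBB and insulin receptor families and can take over signalling when the epidermal growth factor receptor (EGFR) is inhibited. They are MET and its ligand HGF, AXL and its ligand GAS6, FGFR1, FGFR2, FGFR3, FGFR4, EPHA2 and EPHA4. They were chosen by symbol among the 54261 rows of the count table, and all 10 were found. The groups were 3 libraries of PC9/GR cells given an siRNA against the long non-coding RNA MYLK-AS1 (si-MYLK-AS1) and 3 libraries of the same cells given a control siRNA (si-NC). PC9/GR is a human lung cancer cell line, and the title of the series places the knockdown in the setting of resistance to EGFR inhibitors. All libraries come from this one line, with no drug named in the labels and no parental line. The labels do not state separate cultures, so p-values measure only the spread between these libraries, which may be technical.

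A receptor tyrosine kinase binds a ligand outside the cell and phosphorylates tyrosines inside it, on which adaptors such as GRB2 assemble and pass the signal to the RAS-ERK and PI3K-AKT pathways. EGFR uses the same pathways, so another active receptor can keep them running while EGFR is blocked. MET amplification and AXL upregulation are known forms of this bypass in EGFR-mutant lung cancer, and FGFR1 and EPHA2 have been described in resistant cells.

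Of the 10 genes, 9 had enough reads to be tested, and 5 of these passed edgeR's test at an adjusted p of 0.05. MET, FGFR1 and EPHA4 rose in the knockdown, and GAS6 and EPHA2 fell. AXL, FGFR2, FGFR3 and FGFR4 did not pass the test, and HGF was close to absent in both groups. The knockdown moved much of the transcriptome: 21.3% of the 15391 tested genes rose and 20.7% fell. The 3 that rose and 2 that fell of the 9 are not far from these shares. The same 5 genes had group ranges that did not overlap, as did 52.2% of all tested genes. The median log2 fold change of the 9 genes was -0.08, beside -0.0005 over all tested genes.

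**Figure D1:**
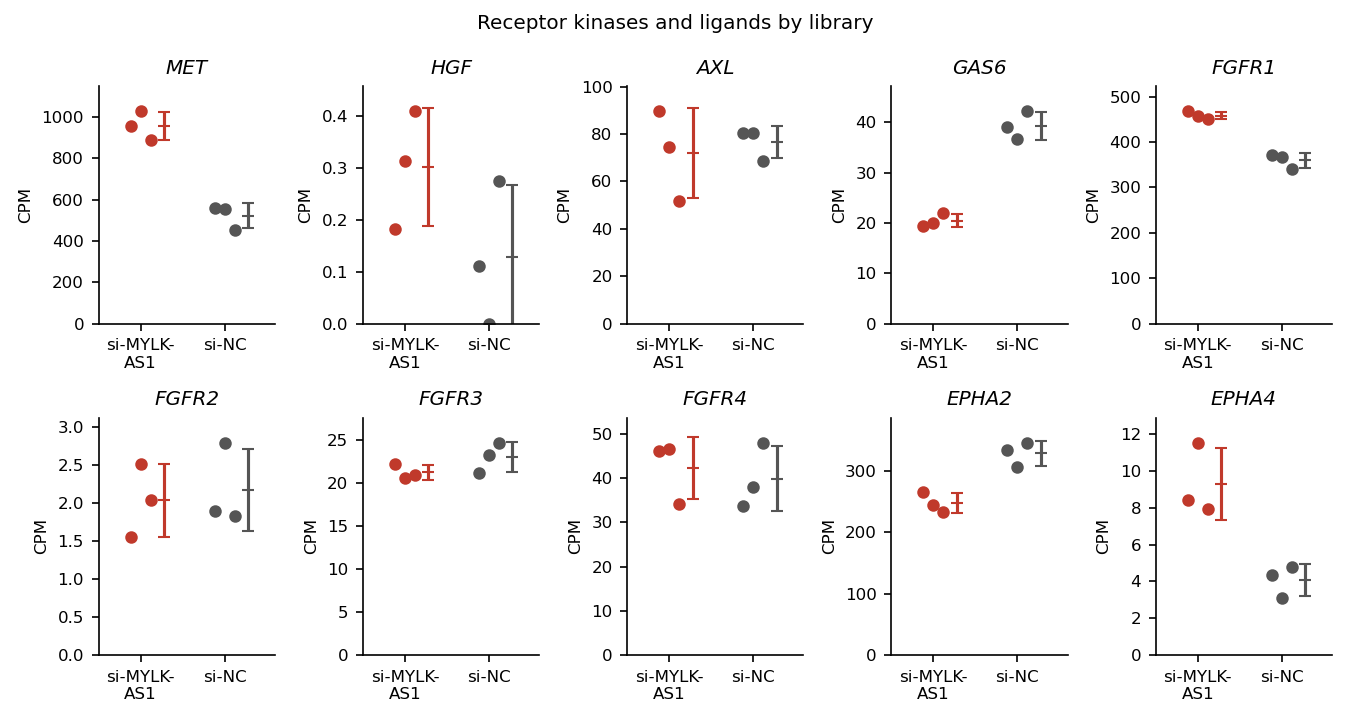
Level of each gene in CPM (read counts scaled to the library size, linear axes from 0) in the 3 si-MYLK-AS1 libraries (red) and the 3 si-NC libraries (grey). Points are libraries in replicate order, and the bars beside them give the mean and SD, cut at 0 for HGF. The groups are apart for MET, GAS6, FGFR1, EPHA2 and EPHA4 and overlap for the other 5 genes.

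Library totals ran from 7551303 to 11055408 reads, and 3 reads, the floor taken for a gene with 0 reads, correspond to 0.274 to 0.410 CPM. The target MYLK-AS1 had 0, 5 and 4 reads in the si-MYLK-AS1 libraries, against 20, 16 and 19 in the si-NC libraries. EGFR itself was listed at 3.36 ± 0.539 CPM in si-MYLK-AS1 and 2.46 ± 0.807 CPM in si-NC (SD, n = 3 each; adjusted p = 0.260). Keratins of simple epithelium were abundant, with KRT18 at 2475 ± 138 CPM in si-MYLK-AS1 and 4255 ± 88.9 CPM in si-NC. The alveolar lineage factor NKX2-1 had 14 summed reads in si-MYLK-AS1 and 9 in si-NC, SFTPB had none, and the epithelial adhesion molecule EPCAM stood at 0.570 ± 0.0611 CPM in si-MYLK-AS1 and 1.497 ± 0.197 CPM in si-NC. Summed over 11 epithelial and lung adenocarcinoma markers, the level was 7635 to 8236 CPM in si-MYLK-AS1 and 11870 to 13900 CPM in si-NC. Of the 9 tested, 6 fell and 1, the keratin KRT19, rose (log2 fold change 0.37), where 20.7% of all tested genes fell and 21.3% rose. The part of these changes in the receptor results was not tested. Among markers of other cells, the defining PTPRC and CD3E (blood cells), COL1A2 (fibroblasts) and TEK (endothelium) had no read in any library. The 9 fibroblast markers summed to 44.3 to 55.6 CPM in si-MYLK-AS1 and 41.6 to 53.7 CPM in si-NC, with LUM the 1 that rose (91 summed reads in si-MYLK-AS1 and 15 in si-NC, adjusted p = 0.000128) and COL1A1 the most abundant, and the 5 endothelial markers to at most 0.839 CPM in si-MYLK-AS1 and 1.001 CPM in si-NC. The 7 immune markers summed to 282 to 324 CPM in si-MYLK-AS1 and 201 to 282.5 CPM in si-NC, most of it from CD68, a lysosomal protein also made by tumour cells, which rose, while CD14 fell. The part of LUM, CD68 and CD14 in the receptor results was not tested. PC9 is known as a lung adenocarcinoma line driven by mutant EGFR, so low counts of EGFR, NKX2-1 and EPCAM go against what the label would lead one to look for, and the libraries are described as labelled. In the second principal component of log2 CPM, which carried 13% of the variance, si-MYLK-AS1 replicate 3 stood apart from the other libraries of its group. The control group was uneven too. The chi-square per degree of freedom of read counts was 8.85 and 8.40 for si-NC replicate 3 against replicates 1 and 2, beside 2.25 between replicates 1 and 2. For si-MYLK-AS1 replicate 3 against replicates 1 and 2 it was 9.08 and 6.84, beside 4.55.

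The promoters of 4 of the 5 genes that passed the test are shown because the RNA levels of these genes differed between the groups. The windows run from 250 bases before to 50 bases after the RefSeq start site on GRCh38.p14, 5′ to 3′ on the strand of the gene, and capitals mark the GC box GGGCGG on either strand. MET lies at chr7:116671946-116672245 (plus strand), GAS6 at chr13:113864027-113864326, EPHA2 at chr1:16156020-16156319, and EPHA4 has a window at chr2:221574153-221574452 and an inner one at chr2:221572255-221572554 (these 4 on the minus strand).
MET: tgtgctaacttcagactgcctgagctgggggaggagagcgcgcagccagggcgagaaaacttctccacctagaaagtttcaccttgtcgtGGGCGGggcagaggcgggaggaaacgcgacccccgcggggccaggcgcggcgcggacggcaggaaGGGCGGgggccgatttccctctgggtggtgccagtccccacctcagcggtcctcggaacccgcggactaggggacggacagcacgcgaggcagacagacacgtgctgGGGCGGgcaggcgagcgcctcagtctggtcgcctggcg
GAS6: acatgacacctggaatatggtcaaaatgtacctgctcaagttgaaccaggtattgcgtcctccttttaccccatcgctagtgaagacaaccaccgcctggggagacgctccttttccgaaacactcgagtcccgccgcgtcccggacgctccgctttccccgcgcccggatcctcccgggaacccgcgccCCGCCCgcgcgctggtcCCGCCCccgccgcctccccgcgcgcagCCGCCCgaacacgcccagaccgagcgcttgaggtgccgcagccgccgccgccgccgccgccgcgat
EPHA2: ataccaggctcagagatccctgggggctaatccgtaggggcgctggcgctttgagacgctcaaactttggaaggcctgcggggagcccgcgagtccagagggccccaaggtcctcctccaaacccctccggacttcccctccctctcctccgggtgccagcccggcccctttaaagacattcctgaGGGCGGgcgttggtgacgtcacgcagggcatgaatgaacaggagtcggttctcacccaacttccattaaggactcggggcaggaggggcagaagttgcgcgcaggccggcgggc
EPHA4: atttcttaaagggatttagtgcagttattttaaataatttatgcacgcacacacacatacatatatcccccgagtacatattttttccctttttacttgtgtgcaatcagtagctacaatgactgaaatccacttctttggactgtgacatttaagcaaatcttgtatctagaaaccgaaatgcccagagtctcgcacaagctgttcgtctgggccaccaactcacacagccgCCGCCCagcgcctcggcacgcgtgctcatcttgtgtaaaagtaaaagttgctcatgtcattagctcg
EPHA4, inner: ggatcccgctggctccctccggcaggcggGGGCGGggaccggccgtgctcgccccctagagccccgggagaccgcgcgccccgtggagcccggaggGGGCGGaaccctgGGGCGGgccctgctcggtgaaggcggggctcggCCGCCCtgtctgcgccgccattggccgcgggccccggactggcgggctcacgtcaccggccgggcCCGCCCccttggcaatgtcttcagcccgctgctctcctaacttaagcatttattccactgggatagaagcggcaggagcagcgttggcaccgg

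The MET and GAS6 windows each hold 3 GC boxes. The EPHA2 window and the outer EPHA4 window hold 1 each, and the inner EPHA4 window holds 5. GC boxes are common: 45% of the 35116 RefSeq promoter windows of this length hold at least 1. Among the windows of the 10 genes, 10 of 16 hold at least 1, and the part of GC boxes in the receptor results was not tested. The AP-1 letters TGANTCA, searched on both strands, are in none of the 16 windows of the 9 matched genes and in 7.71% of all windows. FGFR1 had no matched window. These matches describe letters, not binding.

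MET, the receptor for hepatocyte growth factor, carried the greatest rise in absolute level. It stood at 956, 1028 and 892 CPM in si-MYLK-AS1 replicates 1 to 3, against 558, 557 and 456 CPM in si-NC replicates 1 to 3. Every knockdown library was above every control library, and the gap between the groups exceeded the range within either. The means were 959 ± 68.0 CPM in si-MYLK-AS1 and 524 ± 58.8 CPM in si-NC (SD, n = 3 each). The log2 fold change from edgeR was 0.87 (SE 0.10, 95% interval 0.66 to 1.08, adjusted p = 2.25e-06). MET (ENSG00000105976.14) lies on chromosome 7 from 116672390 to 116798386 on GRCh38, and 93.6% of tested genes had a log2 fold change no higher than its own. In RNA from whole cultures, fewer cells of a kind and less RNA per cell cannot be told apart, here and for the genes that follow.

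Its ligand HGF, which stromal cells usually supply, was barely detected. HGF had 2, 3 and 3 reads in si-MYLK-AS1 and 1, 0 and 3 reads in si-NC. Over the summed reads, 8 against 4, the rate ratio was 2.18 with a 95% exact interval of 0.584 to 9.88 that covers counting error only, so no difference was detectable at this depth. HGF (ENSG00000019991.16, chromosome 7, 81699008 to 81770438) did not pass the filter on low counts and was not tested. Of the proteases that can activate the HGF precursor, HGFAC had 6 and 6 summed reads, ST14 had 14 and 15 and HPN had 3 and 5 in si-MYLK-AS1 and si-NC. The urokinase gene PLAU was abundant, at 491 ± 23.4 CPM in si-MYLK-AS1 and 510.0 ± 47.5 CPM in si-NC (SD, n = 3 each; adjusted p = 0.667).

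Of 17 tested genes of HGF activation and MET adaptors, out of 23 listed, 3 rose and 5 fell, with a median log2 fold change of -0.22, where 21.3% of all tested genes rose and 20.7% fell. CBL, a ubiquitin ligase that marks activated MET and EGFR for degradation, fell to 4.66, 3.77 and 4.09 CPM in si-MYLK-AS1, against 16.8, 16.3 and 9.06 CPM in si-NC. The control libraries were uneven, with replicate 3 lowest, but none reached the knockdown range (log2 fold change -1.74, SE 0.24, edgeR adjusted p = 2.19e-05). Its paralog CBLB rose (0.72, SE 0.12), at 68.5 ± 1.115 CPM in si-MYLK-AS1 and 41.7 ± 5.98 CPM in si-NC (SD, n = 3 each). The adaptor GRB2 rose (0.51, SE 0.09), and SPINT2, an inhibitor of HGF-activating proteases, fell (-0.42, SE 0.09). Among genes picked after their values were seen, CD44, a coreceptor of MET, rose (0.37, SE 0.09), and MST1, the ligand of the MET relative MST1R, fell (-1.65, SE 0.37). MST1 had few reads, 27, 6 and 10 in si-MYLK-AS1, against 37, 50 and 59 in si-NC. Its log2 fold change was -2.30 without si-MYLK-AS1 replicate 1 and -1.26 without si-MYLK-AS1 replicate 2. The MET docking protein GAB1 had 8 and 2 summed reads in si-MYLK-AS1 and si-NC.

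**Figure D2:**
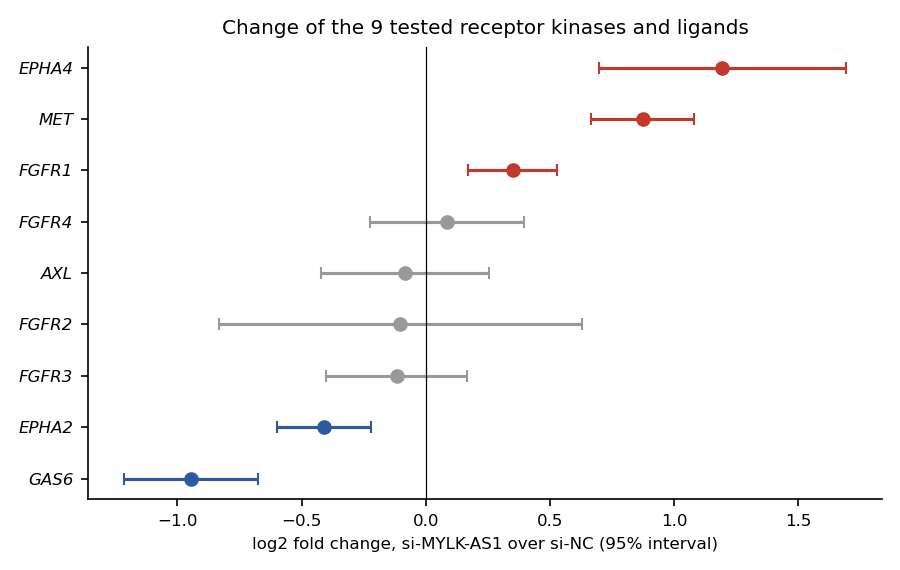
Log2 fold change of si-MYLK-AS1 over si-NC for the 9 tested genes, with 95% intervals from edgeR's quasi-likelihood fit. Red marks genes that rose and blue genes that fell at an adjusted p of 0.05; grey intervals, those of AXL, FGFR2, FGFR3 and FGFR4, include 0.

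AXL, a TAM family receptor often raised in cells that resist EGFR inhibitors, varied more between knockdown libraries than between groups. It stood at 89.6, 74.5 and 51.7 CPM in si-MYLK-AS1 replicates 1 to 3, against 80.5, 80.6 and 68.65 CPM in si-NC. Knockdown replicate 1 was above and replicate 3 below every control library. The log2 fold change was -0.08 (SE 0.16, 95% interval -0.42 to 0.26, edgeR adjusted p = 0.710), and it was 0.11 when si-MYLK-AS1 replicate 3 was left out. AXL (ENSG00000167601.11) lies on chromosome 19 from 41219203 to 41261766.

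GAS6, the vitamin K-dependent ligand of AXL, fell in every knockdown library. It stood at 19.45, 19.9 and 22.0 CPM in si-MYLK-AS1, against 39.0, 36.6 and 42.2 CPM in si-NC. The groups were far apart relative to their spread, with means of 20.4 ± 1.34 CPM in si-MYLK-AS1 and 39.3 ± 2.80 CPM in si-NC (SD, n = 3 each). The log2 fold change was -0.95 (SE 0.13, 95% interval -1.22 to -0.68) with an edgeR adjusted p of 1.54e-05. GAS6 (ENSG00000183087.14) lies on chromosome 13 from 113820549 to 113864067. GGCX, the carboxylase that GAS6 needs to become active, fell as well (-0.76, SE 0.12), at 30.4 ± 2.54 CPM in si-MYLK-AS1 and 51.5 ± 2.85 CPM in si-NC. The other TAM ligand PROS1 did not pass (0.11, SE 0.12, adjusted p = 0.487), nor did the receptor TYRO3 (-0.06, SE 0.13, adjusted p = 0.753). Of the 5 other tested TAM genes, 1 rose and 1, GGCX, fell, where 21.3% of all tested genes rose and 20.7% fell. The 1 that rose was MERTK, named after its value was seen (1.46, SE 0.46, edgeR adjusted p = 0.0164). Its reads were 20, 20 and 45 in si-MYLK-AS1, against 13, 12 and 10 in si-NC. Without si-MYLK-AS1 replicate 3 its log2 fold change was 0.75 and the call was lost (edgeR adjusted p = 0.148), as it was without si-NC replicate 3 (edgeR adjusted p = 0.0676). With all libraries the call was also lost under limma-voom (adjusted p = 0.0501).

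Among the fibroblast growth factor receptors, FGFR1 rose while the other 3 did not pass the test. FGFR1 stood at 467, 456 and 451 CPM in si-MYLK-AS1, against 371, 367 and 340.1 CPM in si-NC. The groups did not overlap, and the knockdown libraries lay close together, at 458 ± 8.45 CPM beside 359.5 ± 16.9 CPM in si-NC (SD, n = 3 each). The log2 fold change was 0.35 (SE 0.09, 95% interval 0.17 to 0.53, edgeR adjusted p = 0.00316), the smallest among the 5 genes called. FGFR1 (ENSG00000077782.20) lies on chromosome 8 from 38400215 to 38468834.

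FGFR4, the receptor for FGF19 with the coreceptor KLB, stood at 46.1, 46.5 and 34.1 CPM in si-MYLK-AS1, against 33.7, 38.1 and 48.0 CPM in si-NC. The ranges coincided almost completely (log2 fold change 0.09, 95% interval -0.23 to 0.40, edgeR adjusted p = 0.677). FGFR3 stood at 22.2, 20.5 and 20.9 CPM in si-MYLK-AS1, against 21.1, 23.2 and 24.6 CPM in si-NC. Its ranges overlapped too, with a log2 fold change of -0.12 (95% interval -0.40 to 0.17, adjusted p = 0.519). FGFR2 was near the limit of the assay, with 17, 24 and 15 reads in si-MYLK-AS1 and 17, 29 and 20 reads in si-NC. Its interval of -0.83 to 0.63 around a log2 fold change of -0.10 (adjusted p = 0.839) leaves room for a change of either sign. The genes lie on chromosome 5 from 177086886 to 177098144 (FGFR4), chromosome 4 from 1793293 to 1808872 (FGFR3) and chromosome 10 from 121478334 to 121598458 (FGFR2).

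Per kilobase of exon, FGFR1 made up 71.3% ± 2.09 of the summed level of the 4 receptors in si-MYLK-AS1 and 66.2% ± 4.13 in si-NC (SD, n = 3 each). FGFR3 made up 9.42% ± 0.392 in si-MYLK-AS1 and 12.1% ± 0.700 in si-NC, without overlap of the libraries. The FGFR4 share, 18.8% ± 2.42 in si-MYLK-AS1 and 21.0% ± 3.51 in si-NC, overlapped. FGFR1 has a long annotated exon union of 13842 bases, and with the longest transcript as the length its share was 79.7% in si-MYLK-AS1 and 75.8% in si-NC. By that length the share of FGFR3 was 5.17% in si-MYLK-AS1 and 6.79% in si-NC, and that of FGFR4 14.6% in si-MYLK-AS1 and 16.8% in si-NC.

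Ligands of these receptors were scarce. Of 18 FGF genes listed, 8 had no read in any library and 2 were tested. The change of FGF2 was 0.11 on the log2 scale (SE 0.28, adjusted p = 0.776), at 3.30 ± 0.336 CPM in si-MYLK-AS1 and 3.04 ± 0.299 CPM in si-NC. For FGF19 it was -0.47 (SE 0.33, adjusted p = 0.268). No other FGF gene had more than 6 summed reads in si-MYLK-AS1 or more than 9 in si-NC. Of 12 tested genes of FGF ligands, coreceptors and adaptors, out of 31 listed, 5 rose and 2 fell, with a median of 0.19. Of all tested genes 21.3% rose and 20.7% fell. FLRT3, a membrane protein that binds FGF receptors, rose (0.79, SE 0.13, adjusted p = 7.66e-05), at 41.3 ± 1.35 CPM in si-MYLK-AS1 and 23.8 ± 2.46 CPM in si-NC. FRS2, the docking protein of the FGF receptors, rose (0.58, SE 0.18), and FGFBP1, which releases FGFs from the matrix, fell (-0.94, SE 0.27). The FRS2 and FGFBP1 calls were lost without si-NC replicate 3 (adjusted p = 0.0715 and 0.0719), and that of FRS2 also without si-MYLK-AS1 replicate 2. FGFRL1 and PLCG1, named after their values were seen, rose by 0.31 each. Their calls were lost under 5 and 7 of 14 alternative settings. KLB, picked after its value was seen, rose (2.21, SE 0.61, adjusted p = 0.00703) on few reads, 35 in si-MYLK-AS1 and 8 in si-NC.

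The 2 Eph receptors moved in opposite directions. Eph receptors bind ephrins on neighbouring cells, and EPHA2 can also signal without ligand in tumour cells. EPHA2 fell to 265, 245 and 233 CPM in si-MYLK-AS1, against 334, 307 and 346 CPM in si-NC. The groups did not overlap, and the means were 248 ± 16.4 CPM in si-MYLK-AS1 and 329 ± 19.95 CPM in si-NC (SD, n = 3 each; log2 fold change -0.41, SE 0.09, 95% interval -0.60 to -0.22, edgeR adjusted p = 0.00147). EPHA2 (ENSG00000142627.12) lies on chromosome 1 from 16124337 to 16156087.

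EPHA4, a receptor for both ephrin classes, rose at a low level by the greatest fold of the 9 genes. It stood at 8.40, 11.5 and 7.92 CPM in si-MYLK-AS1, against 4.34, 3.08 and 4.76 CPM in si-NC. Every knockdown library exceeded every control library, with 260 summed reads in si-MYLK-AS1 and 123 in si-NC. The log2 fold change was 1.19 (SE 0.24, 95% interval 0.70 to 1.69, edgeR adjusted p = 0.000594). EPHA4 (ENSG00000116106.11) lies on chromosome 2 from 221418027 to 221574202.

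Of the 11 other tested Eph receptors and ephrins, 2 rose and 5 fell, with a median of -0.40, where 21.3% of all tested genes rose and 20.7% fell. EFNA1, a high-affinity ligand of EPHA2, fell to 53.0, 60.5 and 68.9 CPM in si-MYLK-AS1, against 103, 88.5 and 95.4 CPM in si-NC (log2 fold change -0.66, SE 0.11, adjusted p = 0.000155). EPHA2 and EFNA1 were thus both lower in every knockdown library. EFNB3, one of the B-class ephrins, fell (-1.25, SE 0.24), at 3.85 ± 1.37 CPM in si-MYLK-AS1 and 9.37 ± 0.563 CPM in si-NC. The remaining calls, named after their values were seen, were EPHB3 (-1.57), EFNA5 (-0.47) and EPHB4 (-0.40) downward and EPHA10 (0.95) and EFNB2 (0.62) upward.

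Set side by side per kilobase of exon, the levels differed widely in both groups, and the order at the top changed. EPHA2 and MET led in si-NC at 79.1 ± 4.796 and 74.4 ± 8.35 CPM per kb (SD, n = 3), which did not differ beyond their spread. In si-MYLK-AS1 MET led at 136 ± 9.66 CPM per kb, with EPHA2 at 59.6 ± 3.95 CPM per kb. Within single libraries the ratio of MET to EPHA2 was 2.13, 2.48 and 2.26 in si-MYLK-AS1, against 0.987, 1.07 and 0.779 in si-NC. FGFR1 came next, at 33.1 ± 0.610 CPM per kb in si-MYLK-AS1 and 26.0 ± 1.22 CPM per kb in si-NC. The place of FGFR1 depends on the length used: with the longest transcript it stood at 73.7 CPM per kb in si-MYLK-AS1, above EPHA2 at 62.5, and at 57.8 CPM per kb in si-NC, below EPHA2 at 83.0. MET led in si-MYLK-AS1 and EPHA2 and MET led in si-NC by either length. AXL followed at 14.0 ± 3.70 CPM per kb of exon in si-MYLK-AS1 and 14.9 ± 1.33 in si-NC, and FGFR4 at 8.75 ± 1.46 in si-MYLK-AS1 and 8.26 ± 1.51 in si-NC. GAS6 and FGFR3 exchanged places: GAS6 stood at 3.40 ± 0.224 CPM per kb in si-MYLK-AS1 and 6.54 ± 0.466 in si-NC, and FGFR3 at 4.37 ± 0.179 in si-MYLK-AS1 and 4.74 ± 0.362 in si-NC. With the longest transcript as the length GAS6 stayed above FGFR3, at 7.73 against 4.78 CPM per kb in si-MYLK-AS1 and 14.9 against 5.18 CPM per kb in si-NC. By that length GAS6 exchanged places with FGFR4 instead, which stood at 13.5 CPM per kb in si-MYLK-AS1 and 12.8 CPM per kb in si-NC. EPHA4, FGFR2 and HGF were the lowest in both groups. The ratio of GAS6 to AXL per kb was 0.186, 0.229 and 0.364 in si-MYLK-AS1, against 0.416, 0.390 and 0.527 in si-NC, without overlap.

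**Figure D3:**
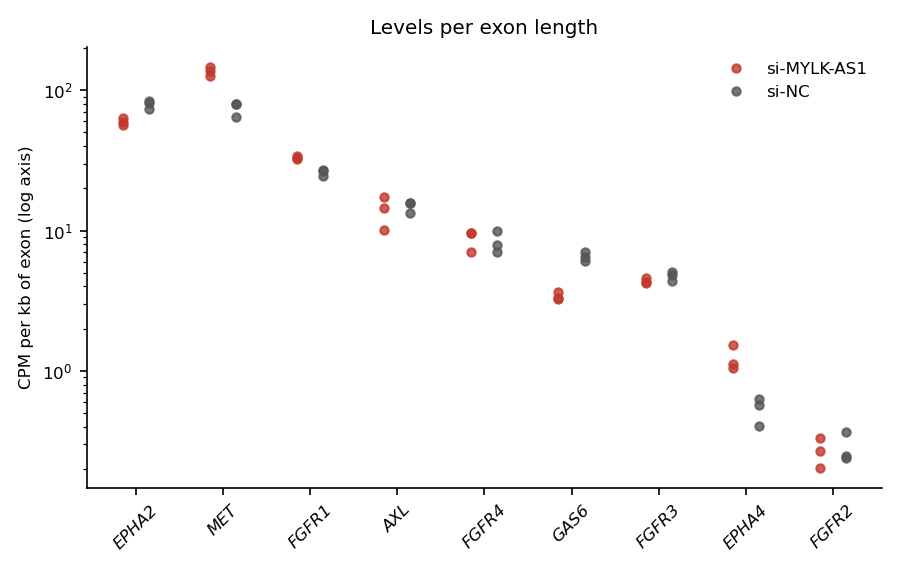
Level in CPM per kilobase of annotated exon (log axis) in each si-MYLK-AS1 (red, left of each pair) and si-NC (grey) library, ordered by the si-NC mean. MET is above EPHA2 in all 3 si-MYLK-AS1 libraries and close to it in si-NC. HGF, with 0 reads in 1 library, is not drawn.

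The list of signalling genes that the receptors share holds adaptors and also kinases, exchange factors and other effectors. Its genes mostly rose where they were called. Of 25 tested genes, out of 26 listed, 11 rose, 1 fell and 13 did not pass, with a median of 0.25, beside the 21.3% and 20.7% of all tested genes that rose and fell. Among the 11, calls were lost under 8 of 14 alternative settings for VAV2, 7 for PLCG1 and 2 each for FRS2 and NCK2. The SH2 adaptors CRK (0.53, SE 0.09) and GRB2 and the PI3K regulatory subunit PIK3R1 (0.80, SE 0.17) rose. STAT3, a transcription factor activated downstream of receptor and cytokine kinases, was the 1 that fell. It stood at 153, 149.6 and 158 CPM in si-MYLK-AS1, against 366, 340 and 319.6 CPM in si-NC (log2 fold change -1.15, SE 0.09, edgeR adjusted p = 2.83e-08). Of 13 other tested receptor kinases, out of 31 listed, MERTK rose and PTK7 (-0.34, SE 0.13) and MST1R (-0.40, SE 0.15) fell, with a median of -0.27. The PTK7 call was lost when any library but si-MYLK-AS1 replicate 3 was left out (adjusted p up to 0.130). With all libraries it was also lost under DESeq2 (adjusted p = 0.0845) and without the filter on low counts (edgeR adjusted p = 0.0833). The MST1R call was lost without si-MYLK-AS1 replicate 2 or 3 or si-NC replicate 2 or 3 (adjusted p up to 0.137). With all libraries it was also lost under DESeq2 (adjusted p = 0.0773). Across all these lists together, 19 of 73 tested genes other than the 10 rose and 14 fell. This balance depends on the settings. It was 17 and 17 with upper quartile factors and 16 and 17 with no scaling factors, but 19 and 14 with RLE factors and 20 and 12 with DESeq2.

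**Figure D4:**
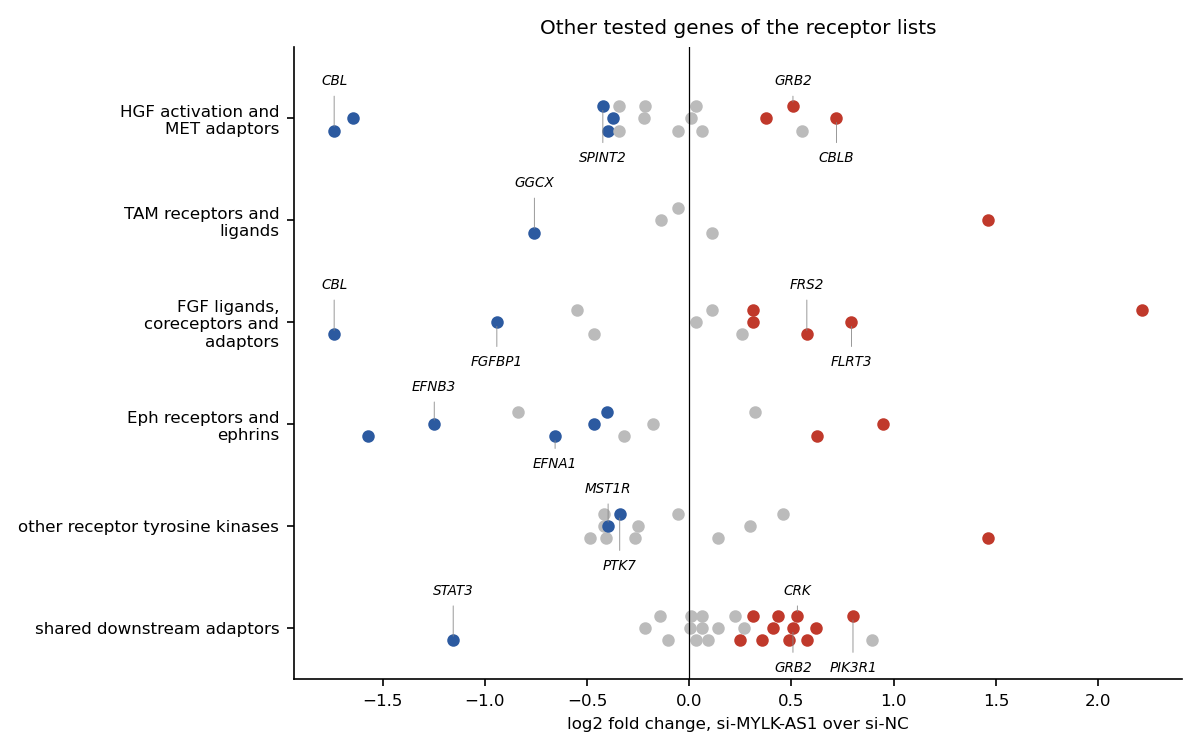
Log2 fold change of si-MYLK-AS1 over si-NC for the tested genes of each receptor list, the 10 genes left out; red rose, blue fell and grey did not pass an adjusted p of 0.05. Vertical offsets within a list carry no value, and a gene of 2 lists is drawn in both. In the list of shared downstream adaptors, which also holds kinases and other effectors, 11 points are red and STAT3 alone is blue.

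Genes whose log2 CPM over the 6 libraries was most like that of each called receptor or ligand were found among about 9490 genes at 10 CPM or more. They were TIPARP, ZNF551 and RASEF for MET, MARVELD1, GPX4 and BTG2 for GAS6, TLK2P1, NACC2 and DUSP22 for FGFR1, INPP1, NOA1 and HDAC5 for EPHA2, and TUBB2B, SURF2 and SLC39A11 for EPHA4. Pearson's r ran from 0.991 to 0.999. The libraries share the split into groups, and 688 genes had r over 0.95 with MET, so the likeness describes that split. TLK2P1 is a pseudogene, whose reads may be shared with its parent gene. Last, 3′ UTRs were searched for the bases AGCTTA and CAGCTTAA, words chosen with earlier results of these data known. Of 362 tested genes with CAGCTTAA 40.1% fell, against 21.8% of 2813 genes with AGCTTA alone and 18.6% of 8341 genes with neither word. Because of that choice these shares are a description and not a test, and the length of the 3′ UTRs was not taken into account. None of the 10 genes holds CAGCTTAA, which 2.84% of all searched genes hold. HGF and FGFR1 hold AGCTTA once each, which 24.8% of all searched genes hold. GAS6 and EPHA2 hold neither, and the part of these words in the receptor results was not tested.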

How the data were processed

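Ion Proton libraries were made from Trizol-extracted RNA of PC9/GR cells, per the labels' protocols. The authors deposited 1 table of unnormalised read counts per gene symbol on GRCh38, a build named in the submitters' processing notes. Their aligner, counting tool, annotation and strand setting are not stated in any source used. Gene positions and exon lengths came from GENCODE release 29, promoters from RefSeq on GRCh38.p14. Totals ran from 7551303 to 11055408 reads.

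Counts were tested with edgeR 4.0.16 (R 4.3.3; filterByExpr, TMM, robust quasi-likelihood F test, two-sided), adjusted by Benjamini-Hochberg over 15391 genes. CPM use TMM-adjusted library sizes, and levels per kb divide them by the union of annotated exons. SE is the log2 fold change over the square root of F, an approximation. In a simulation of this comparison over 15140 genes, planted log2 changes of 0.5 were called for 23 of 67 genes, those of 1 for 60 of 67 and those of 2 for 65 of 66, with 10 false calls. The simulation gave every gene the same dispersion and changed far fewer genes than were called in the data. Its rates show that the fit works and may not hold for these libraries. Alternatives were other scaling factors and filters, DESeq2 1.42.0, limma-voom (limma 3.58.1), leaving out each library, a replicate block and a threshold of 0.01.

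The 10 genes and the lists were chosen with earlier results of these data known. All 10 are named; each list names up to 4 called genes with the lowest p at a mean of at least 5 CPM. Without a known strand setting, reads of genes that overlap on opposite strands cannot be told apart.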

Additional observations from a re-analysis of the deposited data

How the results depend on the processing

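The 5 calls among the 10 genes were kept, each in its direction, under all alternatives run. The ranges of log2 fold change were 0.78 to 0.93 for MET, 0.31 to 0.37 for FGFR1, 1.01 to 1.33 for EPHA4, -0.99 to -0.89 for GAS6 and -0.46 to -0.36 for EPHA2. Among genes that did not pass, the sign changed for AXL without si-MYLK-AS1 replicate 3 (0.11), for FGFR2 without si-MYLK-AS1 replicate 1 (0.08) or si-NC replicate 2 (0.12), and for FGFR4 without si-NC replicate 1 (-0.025); neither direction was called. With 1 library left out, log2 fold changes ran from -0.27 to 0.11 for AXL, -0.29 to 0.12 for FGFR2 and -0.025 to 0.24 for FGFR4. Leaving out 1 library gave 5 called among the 10, 30 to 32 among the other receptor list genes (33 with all libraries) and 5173 to 6112 among all genes (6457 with all). Of the 33, 23 passed under each setting that tested them. Same-numbered libraries of the groups did not deviate together (correlations -0.05, 0.07 and 0.05), so the numbers are not known to pair cultures. With the replicate block the counts were 5, 37 and 6521, and no call among the 10 changed. No scaling moved the median log2 fold change by over 0.1. Depth limits HGF and FGFR2, where few reads leave wide intervals.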

Other observations

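Other receptor genes stood at few reads, and these were picked after their values were seen. PDGFRB, a receptor of mesenchymal cells, had 30 summed reads in si-MYLK-AS1 and 3 in si-NC, and EPHB2 had 32 in si-MYLK-AS1 and 7 in si-NC. In both the libraries did not overlap, as in 52.2% of all tested genes, and neither passed the filter on low counts. ALK and KIT, kinases that are drug targets in other tumours, had no read in any library, and ROS1 had 2 summed reads in each group. NTRK3 was well expressed, at 123 ± 10.6 CPM in si-MYLK-AS1 and 148 ± 24.8 CPM in si-NC (SD, n = 3 each; log2 fold change -0.27, SE 0.12), and did not pass edgeR's test (adjusted p = 0.0725).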
